A study of Mus musculus with 7 samples.

Results

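The genes described here encode the proteins of the cytosolic ribosome. They were chosen by name, as mouse symbols that begin with Rpl (large subunit) or Rps (small subunit) followed by a number, with at most 1 of the letters a, x, l or p and further digits after it, and without the ps ending of named pseudogenes. Among 42687 deposited gene identifiers, 84 matched, and the 78 with at least 10 counts in at least 3 of the 7 libraries are the members, 45 of the large and 33 of the small subunit. RNA was measured in cells positive for CD24 and CD29 sorted from digested femurs of C57BL/6 mice, which the labels call skeletal stem cells. The mice were 3 months old at the start and ate a low fat diet (LFD, 10% fat, libraries 1 to 4) or a high fat diet (HFD, 60% fat, libraries 2 to 4) over 4 weeks. Nothing in the labels says that libraries came from separate animals, so a p-value here reflects only how far these libraries vary, and that variation may be technical.

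The ribosome reads messenger RNA into protein. Its small subunit holds the message and the decoding site, and its large subunit holds the site where peptide bonds form and the tunnel through which the new chain leaves. Ribosomal protein messages are known for a pyrimidine tract at their 5′ end, the TOP tract, which begins with C and through which the kinase complex mTORC1 and the RNA-binding protein Larp1 set their translation. Ribosomal protein genes are also known for a large number of pseudogene copies in mammalian genomes. In humans, loss of 1 copy of several of them impairs red cell formation (Diamond-Blackfan anemia), and changes in a few others affect the skeleton.

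Start sites of 57 of the 78 members, in 68 windows, were matched by symbol in RefSeq (GRCm38.p6). The sequences below run from 15 bases before to 14 bases after the start base, on the gene's own strand, and were chosen to show members with and without a long tract, and the copy Rpl39l beside its partner Rpl39, among those whose values are given further on. Capitals mark the longest run made only of C and T near the start, as far as it lies in the 30 bases shown. The longest run of Rpl39 (9 bases) lies partly outside them. Those of Rpl39l (8 bases), Rpl10 (4 bases) and Rpl7l1 (4 bases) lie wholly outside.
Rpl7a, chr2:26910792-26910821, plus strand: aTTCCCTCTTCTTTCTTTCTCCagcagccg
Rps6, chr4:86857353-86857382, minus strand: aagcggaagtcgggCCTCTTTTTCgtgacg
Rps27, chr3:90213634-90213663, minus strand: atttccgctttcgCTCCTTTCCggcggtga
Rpl38, chr11:114668565-114668594, plus strand: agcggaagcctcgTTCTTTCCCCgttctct
Rpl22l1, chr3:28805493-28805522, plus strand: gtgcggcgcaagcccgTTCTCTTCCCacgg
Rpl39, chrX:37085208-37085237, minus strand: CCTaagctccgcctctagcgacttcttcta
Rpl39l, chr16:10170213-10170242, plus strand: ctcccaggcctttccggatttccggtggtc
Rps16, chr7:28350674-28350703, plus strand: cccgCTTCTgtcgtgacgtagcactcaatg
Rpl10, chrX:74270801-74270830, plus strand: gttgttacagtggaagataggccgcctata
Rpl7l1, chr17:46782642-46782671, minus strand: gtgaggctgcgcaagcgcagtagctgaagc

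A run of at least 8 bases of C and T only, within 25 bases of the start, was present in 33 of the 68 member windows (48.5%) and in 19.7% of the 32851 windows of all genes. A C at the listed start followed by 4 bases of C or T was found in 12 member windows (17.6%) and in 2.51% of all windows. In the whole window of 250 bases before and 50 after the start, on either strand, CCGGAAG was found in 36.8% of member windows and 8.86% of all windows. GCCATCTT was found in 11.8% and 2.75%, and GGGCGG in 60.3% and 35.7%. CACGTG was found in 11.8% and 7.15%, and TATAAA in 8.82% and 13.6%. These shares describe the letters at listed starts, which need not be the starts used in these cells.

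The libraries held 17391613 to 24681838 counts. All 4 LFD libraries had Xist (257 to 526 counts) with 1 to 5 counts of 4 Y-linked genes, and all 3 HFD libraries had 0 Xist counts with 2494 to 3405 Y-linked counts. Diet and sex therefore cannot be told apart in any comparison below. Markers of the labelled tissue were present, with Col2a1 of chondrocytes at 10209 to 39181 CPM and Col1a1 of osteoblasts at 4130 to 27691 CPM, and so were markers of other cells. Erythroid genes (the list of 20 markers) summed to 102982 to 191339 CPM on LFD, and 26738 to 127578 CPM in HFD. The 15 granulocyte genes summed to 958 to 5660 CPM on LFD, and 8989 to 17428 CPM in HFD, with groups that did not overlap. The sum of the 11 monocyte and macrophage genes was also higher without overlap (120 to 777 CPM against 1587 to 2050 CPM). Of these genes 10 were higher and 1 lower, with 7 higher without overlap, against 1201 of the 14304 genes tested. The sum of the 7 endothelial genes was lower without overlap (9.25 to 25.8 CPM against 4.44 to 7.29 CPM). Only 4 of them were tested (3 lower, 1 higher), and 0 were lower without overlap, against 3.47% of all genes tested. CPM, the usual depth-scaled unit, was computed here on library totals adjusted by TMM. Apart from the fit with an erythroid term given below, the part of these cells in the results was not tested. In bulk RNA fewer cells of a type cannot be told from less RNA per cell.

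Ribosomal protein transcripts took 0.475% to 0.766% of the deposited counts. The large subunit members summed to 3807, 2916, 3081 and 3116 CPM on LFD 1 to 4, and to 2606, 2786 and 3132 CPM in HFD 2 to 4, with means of 3230 ± 395 (SD, n = 4) and 2841 ± 267 CPM (SD, n = 3). The small subunit members summed to 3115, 2259, 2451 and 2442 CPM on LFD, and to 2019, 2223 and 2514 CPM in HFD, with means of 2567 ± 376 and 2252 ± 249 CPM. LFD 1 was the highest and HFD 2 the lowest library for both subunits, and the diets overlapped because HFD 4 lay above 3 of the 4 LFD libraries. The ratio of the 2 sums moved little, from 1.22 to 1.29 across all 7 libraries, with means of 1.26 ± 0.0296 (SD, n = 4) in LFD and 1.26 ± 0.0241 (SD, n = 3) in HFD.

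**Figure D1:**
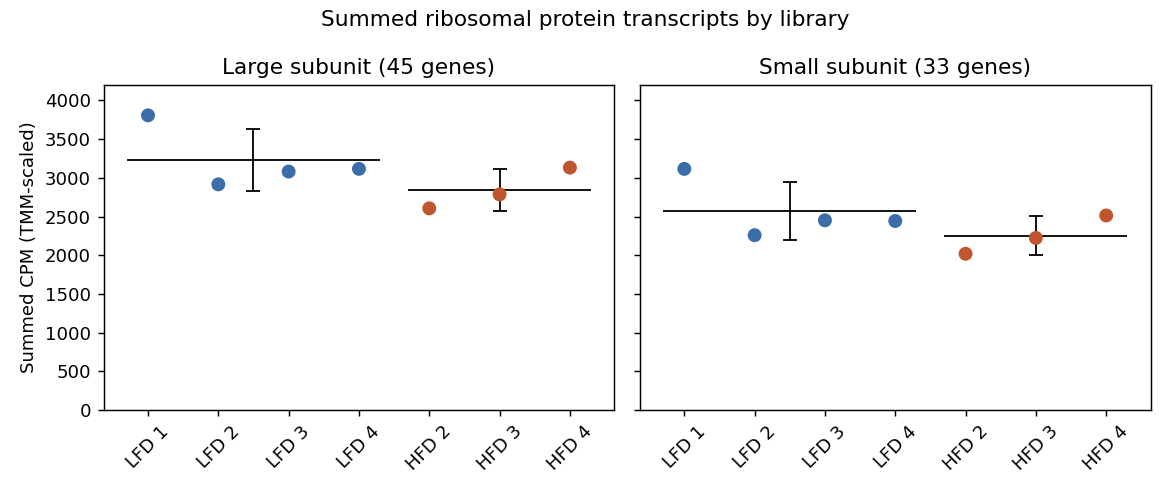
Summed CPM of the 45 large subunit members (left) and the 33 small subunit members (right) in each library, with LFD in blue, HFD in orange, and group means with SD as lines and bars. LFD 1 is highest (3807 and 3115 CPM) and HFD 2 lowest (2606 and 2019 CPM), and the groups overlap.

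No member passed an adjusted p of 0.05 in the comparison of HFD with LFD by edgeR's quasi-likelihood test, where 0.0350% of the 14304 genes tested passed (0.00699% lower in HFD). No member had an unadjusted p under 0.05 either, against 7.53% of all genes. DESeq2 called 0 members, against 2.25% of all genes it tested, and had 5 at an unadjusted p under 0.05, against 8.20%. Limma-voom called 0 members, against 0.196% of all genes, and had 3 at an unadjusted p under 0.05, against 16.8%. Of the large subunit members 39 of 45 had lower values in HFD (median log2 fold change -0.14) and of the small subunit members 29 of 33 (median -0.19). A log2 fold change under 0 was seen for 48.5% of all genes tested, whose median was 0.02. Members share a cell and a library, so they are not independent of each other. No 95% interval of a member lay wholly below 0. For 70 of the 72 protein-coding members that are not copies the bounds of the intervals lay between -0.96 and 0.73 on the log2 scale. The wider ones belonged to Rpl13a and Rpl23a, which had few counts.

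The size of the lower values moved with LFD 1 and HFD 2. Among the 72 protein-coding members without the copies, LFD 1 was the highest library for 65 and HFD 2 the lowest for 39. HFD 2 lay below every LFD library for 43 of them, HFD 3 for 31 and HFD 4 for 8. Without LFD 1, 26 of 45 large and 22 of 33 small subunit members were lower, with medians of -0.025 and -0.035. In that fit 44.8% of all genes were lower and their median was 0.093, against a median of -0.035 over all 78 members. Without HFD 2, 30 and 26 members were lower, against 50.1% of all genes. Without LFD 1 and HFD 2, an alternative added after seeing the data, 19 and 12 were lower and the medians were 0.038 and 0.049, against 47.0% of all genes lower and a median of 0.055. LFD 1, where the member sums were highest, had the smallest erythroid sum of the LFD libraries. HFD 2, where the member sums were lowest, had the smallest erythroid sum of all. With the erythroid share of each library as a second term, 30 and 22 members were lower and the medians were -0.11 and -0.099, against 45.6% of all genes lower and a median of 0.050.

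**Figure D2:**
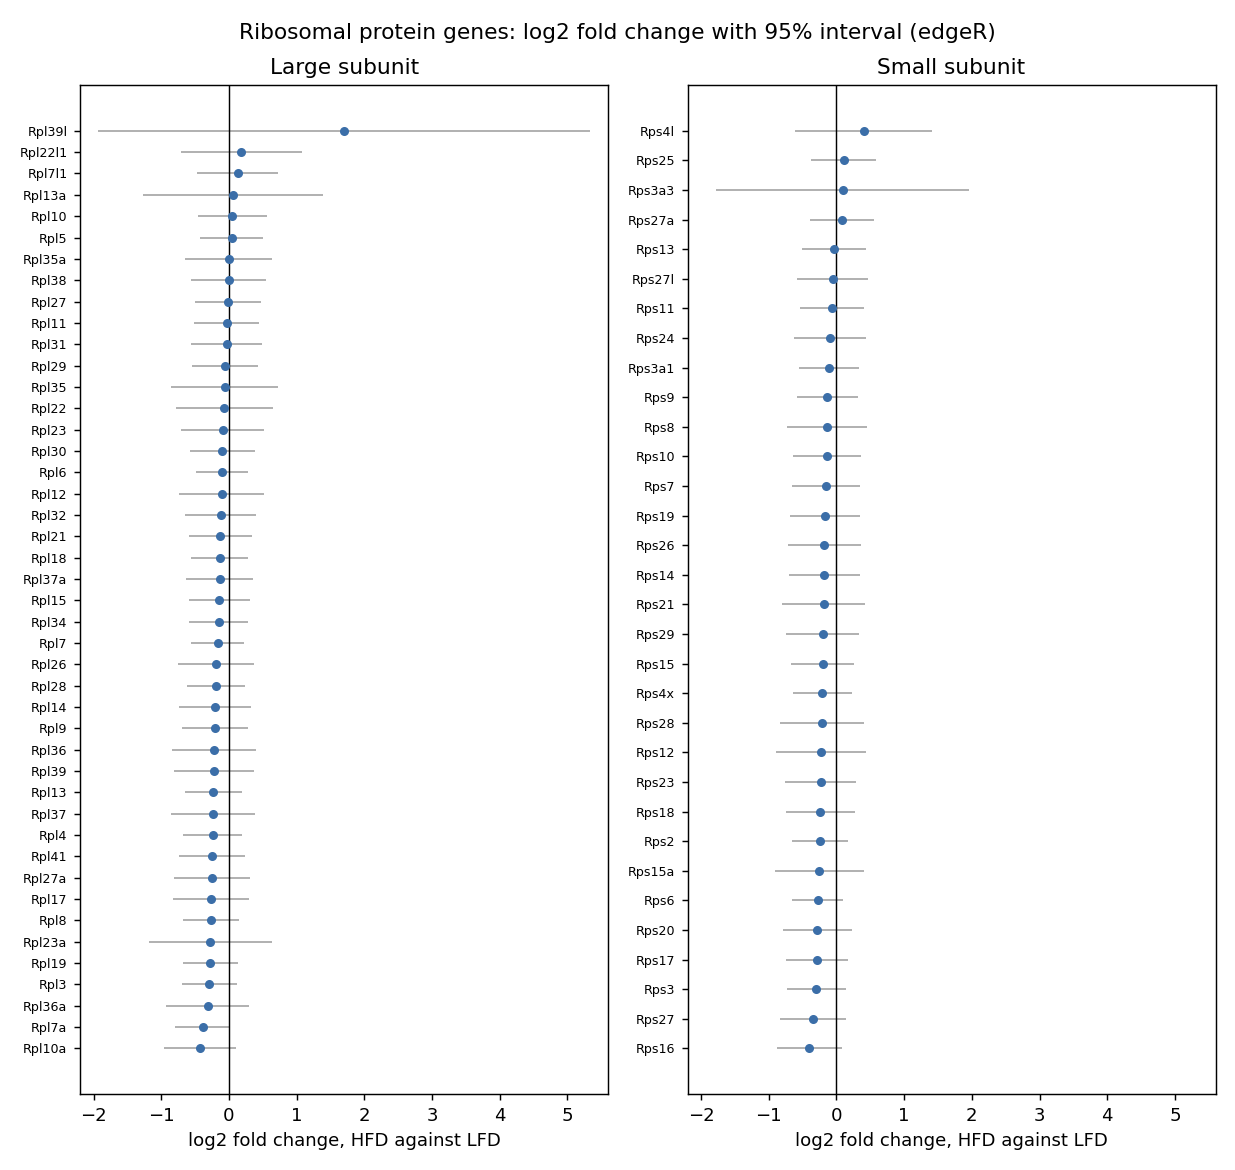
Log2 fold change of 76 of the 78 members in HFD against LFD (x axis) with its 95% interval, by subunit and sorted by value. Most points lie slightly left of 0, all intervals cross 0, and Rpl39l has the widest.

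**Figure D3:**
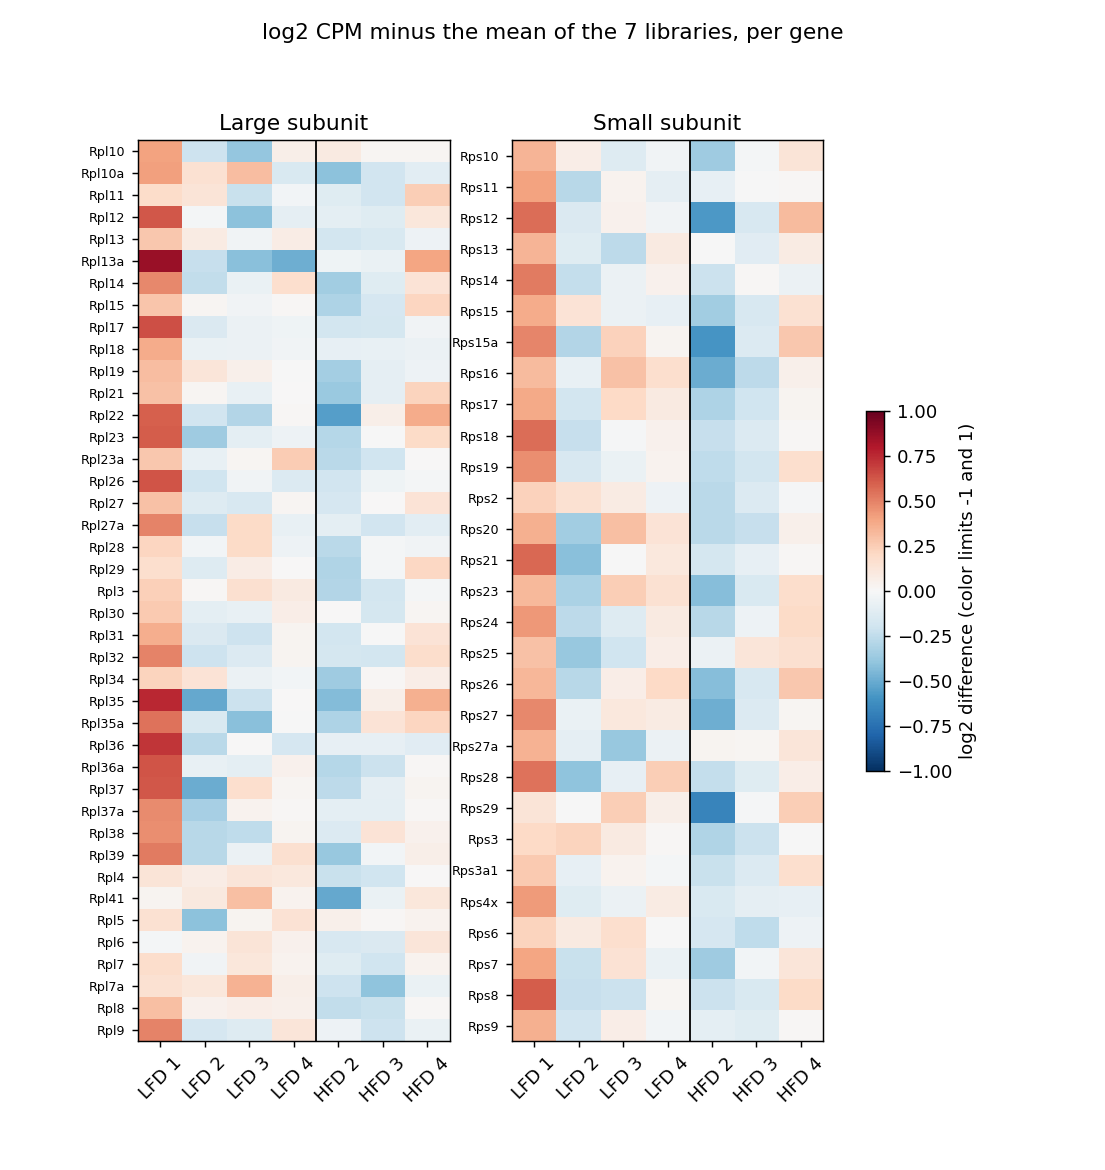
Log2 CPM in each library of 70 of the 72 protein-coding members that are not copies, minus the mean of the 7 libraries for that gene (color from -1 to 1). The LFD 1 column is mostly red (above the mean) and the HFD 2 column mostly blue (below it).

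In the large subunit, Rpl7a had the smallest p. Rpl7a (ENSMUSG00000062647, chr2:26910764-26913318) encodes a large subunit protein and has the long tract printed above at its listed start. It measured 61.7, 59.8, 70.5 and 57.7 CPM on LFD 1 to 4, and 48.0, 41.9 and 52.98 CPM in HFD 2 to 4. Every HFD library lay below every LFD library, and the log2 fold change was -0.39 ± 0.18 (SE, adjusted p = 0.681 by edgeR). Groups did not overlap for 8 of the 78 members, all lower in HFD. Of all genes tested 11.9% did not overlap in either direction, and 3.47% were lower without overlap. The other members without overlap were Rpl3, Rpl4, Rpl8, Rpl13, Rpl19, Rps3 and Rps6. Of these, Rpl8 and Rpl19 are named after their values were seen. Their log2 fold changes ran from -0.30 (Rps3) to -0.23 (Rpl13).

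Rpl3, near the peptidyl transferase center (chr15:80077791-80091868), measured 196, 168, 186 and 177 CPM on LFD, and 135, 146 and 163 CPM in HFD, and Rpl8, another protein of that region, 166 ± 14.7 and 138 ± 13.9 CPM. Rpl4, which lines the tunnel (chr9:64173375-64178666), measured 376, 362, 374 and 370 CPM on LFD, and 295, 299 and 345 CPM in HFD. The LFD libraries of Rpl4 lay close together and the HFD libraries below them, and the log2 fold change was -0.24 ± 0.19 (SE, adjusted p = 0.751 by edgeR). Rpl10a, of the stalk beside the exit site of transfer RNA (chr17:28328471-28331033), had the lowest log2 fold change of all members (-0.43, interval -0.96 to 0.11). Its libraries overlapped, with 30.6, 25.6, 28.5 and 20.8 CPM on LFD, and 17.3, 20.2 and 21.4 CPM in HFD.

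Rpl5 and Rpl11 form the 5S particle with 5S ribosomal RNA and, when free, bind the p53 regulator Mdm2. Rpl5 (chr5:107900502-107909005) measured 42.7, 28.9, 39.1 and 42.4 CPM on LFD, and 39.8, 38.7 and 39.4 CPM in HFD. The 3 HFD libraries lay within the LFD range, and the log2 fold change was 0.04 (interval -0.42 to 0.50). Rpl11 (chr4:136028265-136053428) had a log2 fold change of -0.04 (interval -0.52 to 0.45), whose sign turned in some of the other fits. Of 12 genes of nucleolar stress and the p53 response 8 were lower and 4 higher (log2 fold change up to 0.42), and 0 were called. A value under 0 was seen for 48.5% of all genes tested. The unadjusted p was under 0.05 for 2 of the 12, against 7.53% of all genes tested. Trp53 itself measured 87.1 ± 4.57 CPM on LFD, and 60.7 ± 8.85 CPM on HFD, and its log2 fold change was -0.52, adjusted p = 0.518 by edgeR, and Sesn1, a p53 target, had a log2 fold change of -0.80 and Mdm2 of -0.31.

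Some large subunit proteins are known from the skeleton. Rpl38, which is needed for the normal vertebral pattern of the mouse (chr11:114668524-114672331), measured 49.6, 29.6, 30.2 and 36.5 CPM on LFD, and 32.6, 39.4 and 37.0 CPM in HFD, a log2 fold change of -0.01 (interval -0.55 to 0.54). The sign of Rpl38 turned in several other fits. Rpl13, whose human gene is mutated in a form of spondyloepimetaphyseal dysplasia (chr8:123102350-123105244), measured 250 ± 22.7 CPM on LFD, and 213 ± 10.8 CPM in HFD. Rpl24, the gene of the Belly spot and tail mouse, had 0 to 4 counts in each library and did not pass the count rule.

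In the small subunit, Rps16 had the smallest p. Rps16, of the head domain (chr7:28350652-28353155), measured 54.7, 41.7, 53.7 and 49.3 CPM on LFD, and 31.1, 36.6 and 45.6 CPM in HFD. HFD 4 lay above LFD 2, and the log2 fold change was -0.40 ± 0.21 (SE, adjusted p = 0.692 by edgeR). Rps6, the substrate of the S6 kinases downstream of mTORC1 (chr4:86854660-86857412), measured 116, 106, 111 and 99.1 CPM on LFD, and 88.3, 83.1 and 95.7 CPM in HFD. Its groups did not overlap, although the gap between LFD 4 and HFD 4 was small beside the range within each diet. Rps27, a zinc-binding protein (chr3:90212522-90213651), measured 89.7, 61.4, 69.1 and 67.9 CPM on LFD, and 45.8, 58.5 and 65.3 CPM in HFD, with overlap. Rps3, at the entry of the message channel (chr7:99477896-99483738), measured 266 ± 18.4 and 216 ± 23.3 CPM. Rps19, the gene most often mutated in Diamond-Blackfan anemia (chr7:24884371-24889806), measured 205, 133, 143 and 153 CPM on LFD, and 125, 131 and 167 CPM in HFD. The Rps19 libraries overlapped widely, at a log2 fold change of -0.17 (interval -0.68 to 0.35).

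Of the 4 X-linked members 3 had lower values in HFD and 1 a higher one. Rpl10 (chrX:74270812-74273135), which completes the large subunit late in its assembly, measured 112, 73.4, 64.7 and 88.2 CPM on LFD, and 90.4, 86.1 and 86.1 CPM in HFD, a log2 fold change of 0.05. Rps4x (chrX:102184941-102189394) had -0.21, Rpl39 (chrX:37082520-37085402), of the exit tunnel, had -0.22, and Rpl36a (chrX:134585654-134588062), of the large subunit, had -0.32. Adjusted p ranged from 0.760 to 0.966 by edgeR for these genes. LFD 1 was the highest library for each of them.

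Several ribosomal protein genes have copies elsewhere in the genome. Of 7 copies listed, Rpl7l1, Rpl22l1, Rpl39l, Rps4l and Rps27l passed the count rule. Rpl10l, known from testis, had 0 counts in every library, which allows up to 3 counts or 0.105 to 0.188 CPM, and the muscle copy Rpl3l had 0 to 11 counts. Counts of the copy are given below as a share of the counts of copy and partner together, which does not depend on library scaling. Those shares were compared by an exact two-sided permutation test over 35 assignments, chosen after the values were seen, whose smallest p is 0.0286.

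Rpl39l, a copy of Rpl39 known from testis (chr16:10170226-10174911), had 3.24, 0, 0 and 1.83 CPM on LFD 1 to 4, and 3.15, 5.51 and 3.87 CPM in HFD 2 to 4. The 0 counts of LFD 2 and LFD 3 allow up to 0.188 and 0.187 CPM. LFD 1 overlapped the HFD libraries, and edgeR gave a log2 fold change of 1.70 with an interval from -1.93 to 5.34 (adjusted p = 0.788), which depends on the prior count where libraries are at 0. As a share of Rpl39l and Rpl39 counts it made up 8.26%, 0%, 0% and 6.12% in LFD and 14.0%, 18.3% and 12.9% in HFD. The HFD libraries were all above the LFD libraries (exact permutation p = 0.0286, adjusted over 6 pairs 0.171).

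Rps4l, a copy of Rps4x that the annotation lists as a transcribed processed pseudogene (chr6:148354656-148355598), measured 18.5, 11.1, 4.86 and 14.5 CPM on LFD, and 15.5, 19.5 and 13.6 CPM in HFD. Its share beside Rps4x was 13.2% ± 4.49 in LFD and 19.3% ± 2.83 in HFD (exact permutation p = 0.0857, adjusted 0.171), with no overlap between the diets. Rps27l, a p53 target that differs from Rps27 at few residues (chr9:66946086-66949516), measured 91.2, 62.1, 61.3 and 76.4 CPM on LFD, and 55.6, 83.6 and 70.7 CPM in HFD. It had about as many counts as Rps27, at 50.2% ± 2.43 and 55.2% ± 3.42 of the pair (exact permutation p = 0.0857, adjusted 0.171), and HFD 4 lay below LFD 4. Rpl22l1, a copy of Rpl22, measured 4.26 to 9.99 CPM in all libraries and had 19.7% ± 5.21 and 23.4% ± 6.11 of the counts of its pair (exact permutation p = 0.400, adjusted 0.480). Rpl7l1, known from ribosome assembly, measured 66.5 to 123 CPM and had 38.7% ± 6.67 and 44.4% ± 1.77 (exact permutation p = 0.314, adjusted 0.471). None of the 6 pairs passed after adjustment. At the smallest p of this exact permutation test (0.0286), 1 pair alone could not pass when adjusted over 6 pairs. The adjusted values therefore cannot decide whether the share of a single pair differed.

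**Figure D4:**
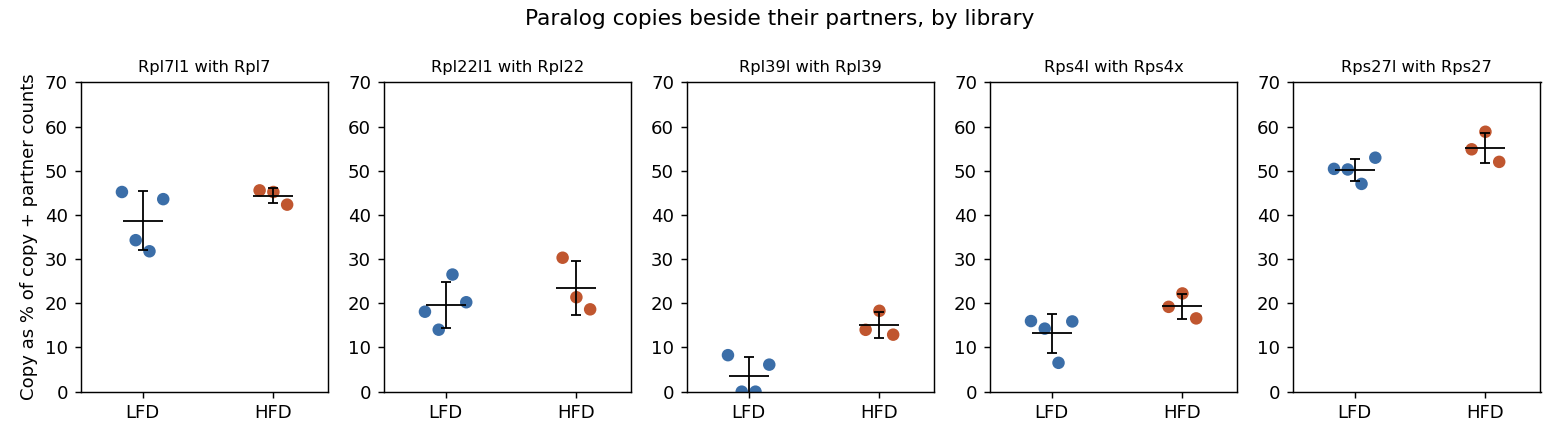
Counts of each copy as a percent of the counts of copy and partner, with 1 point per library (LFD blue, HFD orange) and mean with SD. For Rpl39l and Rps4l every HFD point lies above every LFD point, and Rpl39l is at 0 in LFD 2 and LFD 3.

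The proportions within the pool of ribosomal protein transcripts were compared separately. When each library was scaled by its own summed member counts, which sets the pool as a whole near 0, 43 members were higher and 35 lower, and the log2 fold changes of the 72 protein-coding members without the copies ran from -0.24 (Rpl10a) to 0.30 (Rps25). None passed (smallest adjusted p = 0.625 by edgeR, 0 at an unadjusted p under 0.05). The 10 most abundant members held 35.9% of the pool. Rpl4 alone took 5.43% to 6.99% of the pool across the libraries, and Rpl13 3.99% to 4.76%. Other members varied more between libraries, such as Rpl35 (0.441% to 0.792%), Rpl10 (1.17% to 1.96%), Rpl7l1 (1.203% to 2.199%) and Rps4l (0.0878% to 0.389%). Rpl35 is named after its values were seen.

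Levels per kb of annotated exon differed widely between members, although a ribosome holds each protein in the same number, apart from the stalk proteins. Rpl13 was highest in the large subunit at 300.1 CPM per kb, followed by Rpl41, which encodes a very short peptide (229.5), and Rpl4 (224.8). In the small subunit Rps29, a zinc-binding protein, was highest at 171 CPM per kb, and Rps3a1 reached 145 CPM per kb. The order at the top depends on the length used. Per kb of the transcript with the longest coding sequence Rpl41 (324) passed Rpl13 (300.1). By that length Rps14 (256), Rps9 (211) and Rps27 (189.5) passed Rps29 (171). Rps14 and Rps9 are named after their values were seen. At the other end lay Rpl39l (3.02 CPM per kb), Rpl13a (3.49), known for silencing inflammatory messages after interferon gamma, and Rpl23a (10.3), the docking site of the signal recognition particle. In the small subunit these were Rps3a3 (0.978 CPM per kb), which the annotation lists as a processed pseudogene, Rps15a (5.62) and Rps20 (13.6). The value of Rps15a rests on its annotated exons of 5395 bases and is 47.4 per kb over its transcript with the longest coding sequence. Rps20, with a mean of 50.3 CPM, has 3706 bases by either length. The median exon length of the protein-coding members that are not copies was 976 bases. Rpl13 was 86.1 times as high as Rpl13a.

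Rpl13a had 175, 51, 45 and 54 counts in LFD and 104, 74 and 103 in HFD, and Rpl23a 87 to 177 counts in all libraries. Just inside the count rule lay Rps3a3 with 8 to 21 counts, and just outside it Rpl6l, listed as a processed pseudogene, with 4 to 16 counts. Many members share sequence with other genes, mostly pseudogenes. Of all 50-base windows in a member's transcript a median of 61.7% occurred in a transcript of another gene, and 46 of the 78 members shared more than 50%. Rpl7a shared 81.2% of its windows with 123 genes in all, Rps27 98.65% and Rpl13 80.3%, while Rpl4 shared 16.45% and Rpl39l 0%. Across the 78 members this share did not order the levels (Spearman's rho -0.04 with CPM per kb, and -0.14 with log2 fold change, given as a description). Rpl24, with 81.7% of windows shared, had almost no counts, and Rpl10, with 92.1%, had 1039 to 2875 in each library.

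**Figure D5:**
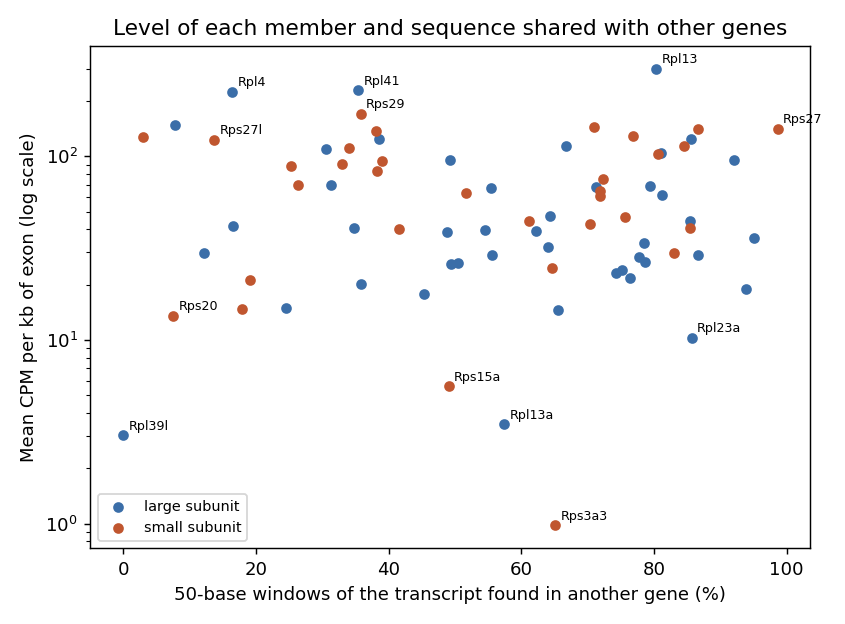
Mean CPM per kb of exon (log scale) of 76 of the 78 members against the percent of its 50-base transcript windows that occur in another gene, with the large subunit in blue and the small subunit in orange. High and low levels occur along the whole axis, with Rpl13 at 80.3% near the top and Rpl39l at 0% near the bottom.

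Ribosomal protein genes that the name pattern leaves out behaved much like the members. Of 8 such genes 7 were lower and 0 were called or had an unadjusted p under 0.05, with a median log2 fold change of -0.16. Rplp0, the base of the stalk that recruits elongation factors, measured 406, 356, 369 and 366 CPM on LFD, and 309, 350 and 352 CPM in HFD, just without overlap. Its partners Rplp1 and Rplp2 had -0.15 and -0.27, Rpsa, the small subunit protein also known as the laminin receptor, had -0.24, and Rpl36al, the copy of Rpl36a, had 0.17.

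The wider translation machinery showed the following. Of 19 translation factors and other genes with TOP messages 17 were lower (median -0.20) and 0 were called. Against 7.53% of all genes tested, 1 of the 19 had an unadjusted p under 0.05. That gene was Eif3k, a subunit of initiation factor 3, with 86.0, 98.2, 91.9 and 89.7 CPM on LFD, and 57.9, 68.0 and 67.6 CPM on HFD, and its log2 fold change was -0.50 ± 0.17, SE, adjusted p = 0.497 by edgeR. Its groups were well apart, and Eif3m (-0.41) and Eif3f (-0.43) of the same factor also had groups that did not overlap. Of the 19 genes 6 were lower without overlap, where 3.47% of all genes tested were lower without overlap. The 19 genes summed to 3385, 4181, 4361 and 3371 CPM on LFD, and to 2536, 2781 and 3297 CPM in HFD, just without overlap. LFD 1, the highest library for the ribosomal proteins, was not the highest one here.

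Of 40 ribosome biogenesis genes 26 were lower (median -0.08), where 48.5% of all genes tested were lower, and 0 were called. An unadjusted p under 0.05 was found for 2 of the 40, against 7.53% of all genes tested. These 2 were Nop58 (-0.61), of the RNA methylation particle, and Emg1 (-0.46), a ribosomal RNA methyltransferase. Dkc1, the pseudouridine synthase of ribosomal RNA, had -0.57 with overlap. Of 17 regulators around mTORC1 and Larp1 10 were higher and 7 lower (median 0.04), and 0 were called. Eif4ebp1, the translation inhibitor that mTORC1 phosphorylates, measured 37.1, 25.1, 21.5 and 24.1 CPM on LFD, and 38.2, 45.4 and 37.9 CPM in HFD, just without overlap (log2 fold change 0.59, adjusted p = 0.637 by edgeR). Max (-0.93) and Eif4ebp2 (-0.47) had lower values with overlap. Of 77 mitochondrial ribosomal protein genes 42 were lower and 35 higher (median -0.02), with 0 called and 0 at an unadjusted p under 0.05. Their sum was 1619 ± 157 CPM on LFD, and 1579 ± 77.5 CPM in HFD. Proliferation genes had lower values in 25 of 25 cases (median -0.72) with 0 called and 0 at an unadjusted p under 0.05, and their sums overlapped between the diets.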

How the data were processed

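The authors deposited whole-number counts per Ensembl gene, not normalized, with 1 column per library. Per the labels' protocols, RNA was extracted with a column kit and copied and tagged with low-input SMART-Seq and Nextera XT kits. The submitters' processing notes list STAR 2.5.2b and HTSeq 0.11.2 beside bcl2fastq 2.20 and cutadapt, and the build mm10. Strandedness, the treatment of multi-mapped reads and the gene annotation used for counting: not given in the sources used here. Hence members with near-identical copies are uncertain. The kits mark no single molecules, and limits from 0 counts cover counting error only.

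Symbols were matched for 42250 identifiers and not for 437. Diets were compared with edgeR 4.0.16 in R 4.3.3 (quasi-likelihood test, TMM, filterByExpr, robust fitting, diet as the sole term, Benjamini-Hochberg adjustment over 14304 genes), and all 78 members were in that fit. DESeq2 1.42.0, limma 3.58.1 (voom with quality weights), RLE and upper-quartile scaling, other filters, omission of single libraries, a replicate block, omission of globin genes, the erythroid share as a term and scaling by member counts were alternatives. The edgeR procedure was also run on simulated counts, whose set changes were far larger than the median shifts of the members. That run does not show its power for such small shifts. Every pair of libraries differed by more than counting noise (chi-square over its degrees of freedom 53.8 to 618). Exon lengths, coordinates and transcripts are from GENCODE M21 on mm10, whose exon length joins basic protein-coding transcripts, or all transcripts where a gene has none, and start sites from RefSeq on GRCm38.p6.

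Named members were, per subunit, the 4 with the smallest p and the 3 highest and 3 lowest per kb, with the copies and partners, the X-linked members, the extremes by log2 fold change, 8 genes known from disease or regulation, and up to 3 per pathway list with the smallest p. Col2a1 and Col1a1 are the most abundant of their marker lists. The members and lists were chosen with earlier results of these data known. Values of 2 members that this rule names are not reported here and are left out of the plots; both are in the fit and in all counts and sums.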

Additional observations from a re-analysis of the deposited data

Results flagged for a closer look

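Among 49 sets of 4 LFD values examined, 5 held a library far from the other 3 by Dixon's criterion (the gap to the nearest library, as a share of the range). Chance gives about 1 in 20 for independent sets, which these are not. LFD 1 stood apart in 3 of them. Rpl13a measured 6.83 CPM there against 2.67 to 3.20 CPM in the others, Rpl36a 32.5 CPM against 19.6 to 21.6 CPM, and Rpl8 188 CPM against 158 to 160 CPM. LFD 2 stood apart for Rpl3l, with 0.689 CPM where the others had 0, and for its share beside Rpl3, 0.410% against 0%. Both rest on the same 11 counts, and with the other 3 libraries at 0 any count would stand apart.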

How the results depend on the processing

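No member was called under any alternative (smallest adjusted p 0.219). Over all genes 5 were called, against 8 without the filter, 1 with the erythroid term, 28 by limma-voom, 361 by DESeq2 and 1 to 6 with single libraries left out. Leaving out LFD 2, HFD 2, HFD 3 or HFD 4 gave 1. Leaving out single libraries gave 26 to 43 large and 22 to 30 small subunit members lower, with medians of -0.23 to -0.025 and -0.30 to -0.035. Without LFD 1 and HFD 2, added after seeing the data, 0 genes were called, 19 and 12 members were lower and the medians were 0.038 and 0.049. Scaling by member counts, which sets the pool near 0 by construction, gave 18 and 17 lower and a large subunit median of 0.030. The other causes were not tested.

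With the replicate number as a block 0 genes were called. In that fit 26 large and 23 small subunit members were lower (medians -0.022 and -0.048), against 42.5% of all genes (median 0.15). LFD 1 has no HFD library of the same number, so it does not inform the diet term under the block. Of the 78 members 49 were lower under the block, and 48 when LFD 1 was left out. Same-numbered libraries did not deviate together (correlations -0.095, 0.026 and -0.062). With so few libraries per diet, this cannot decide whether the numbers pair the samples. The sign of 59 of the 78 members stayed under the block. Among the named members it turned for Rpl11 0.017, Rpl22 0.12, Rpl38 0.18 and Rps27l 0.058.

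Of 684 values of 36 named members under alternatives, 629 kept their sign and 55, from 17 members, did not. These log2 fold changes were, with the erythroid term, Rpl10 -0.093, Rpl11 0.043, Rpl22 0.15, Rpl41 0.046, Rpl5 -0.015, Rpl7l1 -0.030, Rps15a 0.015, Rps27l 0.048 and Rps29 0.17. With scaling by member counts they were Rpl11 0.14, Rpl22 0.12, Rpl38 0.20, Rpl7 0.015, Rps19 0.022, Rps27l 0.14 and Rps3a1 0.071. By limma-voom they were Rpl22 0.023, Rpl38 0.093, Rpl5 -0.011 and Rps27l 0.090. Rpl38 was 0.0057 without the filter and 0.0032 with upper-quartile scaling. Without LFD 1 and HFD 2 they were Rpl11 0.073, Rpl22 0.37, Rpl38 0.25, Rpl39 0.059, Rps15a 0.071, Rps19 0.058, Rps27l 0.21, Rps29 0.017 and Rps3a1 0.040. With single libraries left out the ranges were Rpl10 -0.056 to 0.22, Rpl11 -0.18 to 0.059, Rpl13a -0.10 to 0.49, Rpl22 -0.29 to 0.16, Rpl22l1 -0.016 to 0.34, Rpl38 -0.096 to 0.18, Rpl5 -0.077 to 0.10, Rps27l -0.19 to 0.079, Rps29 -0.40 to 0.0085, Rps3a3 -0.094 to 0.27. Rpl13a, Rpl23a, Rpl39l and Rps3a3 had few counts and wide intervals.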
